A study of Mus musculus with 4 samples.

Results

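The nuclear genes for subunits of the respiratory chain complexes I to IV and of the ATP synthase (complex V), together with the complex I assembly factors named Ndufaf, were examined in mouse embryonic stem cells (ESCs) kept in lactate. Members were chosen by symbol alone, as the genes whose names begin with Ndufa, Ndufb, Ndufc, Ndufs, Ndufv, Uqcr, Atp5 or Cox4 to Cox8, plus Sdha, Sdhb, Sdhc and Sdhd, with names ending in a pseudogene tag left out. This gave 98 of the 55335 genes in the count table, of which 49 belonged by name to complex I, 4 to complex II, 8 to complex III, 19 to complex IV and 18 to complex V. The annotation lists 94 of them as protein coding and 4 as processed pseudogenes (Ndufb4c, Ndufs6b, Ndufa11b and Cox6c2). A filter on low counts was passed by 91 members and by 18661 genes in all.

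RNA-seq libraries were made from AB2.2, a single mouse ESC line grown on mouse embryonic fibroblast feeders in medium with fetal bovine serum, leukemia inhibitory factor and the inhibitors CHIR99021 and PD0325901. The control group had 2 libraries, and the lactate group had 2 libraries of the same line in the same medium with 50 mM lactate for 24 h. No label says that libraries of a group came from separate cultures, so p-values measure only the spread between these libraries, which may be technical. The feeders were part of both groups, and in such bulk RNA fewer cells of a type and less RNA per cell cannot be told apart.

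Reads assigned to genes numbered between 18067562 and 19077885 per library. All 10 ESC markers on a list that included Pou5f1, Nanog and Zfp42 were tested, with none below 65.5 TPM (a transcript level scaled to length and depth) in any library and summed levels of 5881 to 8247 TPM in control and 6624 to 10320 TPM in lactate. All 14 feeder fibroblast markers, collagens among them, were also detected, with summed levels of 236 to 303 TPM in control and 261 to 273 TPM in lactate. Of 10 primitive endoderm markers 8 were tested, with summed levels of 268 to 301 TPM in control and 231 to 286 TPM in lactate. At an unadjusted p under 0.05, edgeR had 3 ESC markers higher with lactate and 1 lower, 1 and 1 feeder markers, and 3 and 1 primitive endoderm markers, with median log2 fold changes of 0.05, -0.06 and 0.56. Of all genes tested, 11.7% were higher and 11.4% lower at that p, and 4.50% had an adjusted p under 0.05 in DESeq2. DESeq2 gave an adjusted p under 0.05 to 0 ESC markers, to 1 feeder marker, Col3a1 (264 and 371 reads in control, 143 and 217 in lactate), and to 1 primitive endoderm marker, Lama1, whose log2 fold changes in edgeR were -0.90 (SE 0.24) and 0.69 (SE 0.15). This pair was singled out with the values already known. The part of these cell types in the results was not tested.

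Complexes I, III and IV pass electrons from NADH to oxygen and pump protons across the inner mitochondrial membrane, complex II feeds in electrons from succinate, and complex V uses the proton gradient to make ATP. Nearly all subunits are encoded in the nucleus, while a small number of core subunits come from mitochondrial DNA, so each complex except complex II is built from the products of both genomes. Pluripotent cells are known for a high rate of glycolysis, whose end product is lactate, and they keep a functional respiratory chain.

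The c subunit forms the rotating ring of complex V and shows how closely related some members are. It is encoded by 3 genes, and the mature protein, the last 75 codons, is the same from all of them, so that their shares of RNA can be compared only through differences in the DNA. These coding ends (GRCm38, minus strand; Atp5g1 within chr11:96073107-96073635, Atp5g2 within chr15:102663017-102665166 and Atp5g3 within chr2:73908596-73909296, introns left out) are given from 5′ to 3′ with capitals at bases that differ from at least 1 of the other genes.
Atp5g1: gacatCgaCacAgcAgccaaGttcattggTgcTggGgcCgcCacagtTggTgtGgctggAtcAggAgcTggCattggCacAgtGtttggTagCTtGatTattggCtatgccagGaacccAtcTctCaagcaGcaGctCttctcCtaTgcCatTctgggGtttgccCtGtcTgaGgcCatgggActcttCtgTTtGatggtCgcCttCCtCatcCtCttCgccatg
Atp5g2: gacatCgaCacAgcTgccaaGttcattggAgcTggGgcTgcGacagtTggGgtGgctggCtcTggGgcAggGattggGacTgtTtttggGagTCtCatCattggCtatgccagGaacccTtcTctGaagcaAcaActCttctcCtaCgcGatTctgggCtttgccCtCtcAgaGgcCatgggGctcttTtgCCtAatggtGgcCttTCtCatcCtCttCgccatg
Atp5g3: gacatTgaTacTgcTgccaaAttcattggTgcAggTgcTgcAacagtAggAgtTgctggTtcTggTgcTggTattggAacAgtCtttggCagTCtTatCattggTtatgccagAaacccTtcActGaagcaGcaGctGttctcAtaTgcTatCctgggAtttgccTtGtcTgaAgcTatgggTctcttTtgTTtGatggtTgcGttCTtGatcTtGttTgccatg
Of 225 bases, 191 (84.9%) were the same in Atp5g1 and Atp5g2, 180 (80.0%) in Atp5g1 and Atp5g3, and 177 (78.7%) in Atp5g2 and Atp5g3, and all 75 codons gave the same amino acid in each pair. The longest identical run was 20, 11 and 8 bases in these pairs.

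No member passed the test for a change with lactate. The call rule asked for a difference above 2-fold and an adjusted p below 0.05 (edgeR quasi-likelihood test, p-values adjusted by Benjamini-Hochberg), and it called 168 of the 18661 genes (0.900%) and 0 of the 91 members. The adjusted p alone passed 185 genes (0.991%) and 0 members, and the smallest adjusted p among the members was 0.0747, for Ndufa4l2. Without adjustment, p was under 0.05 and the level higher with lactate for 11.7% of all genes and for 1 member, Ndufaf4. It was under 0.05 and the level lower for 11.4% of all genes and for 4 members, Ndufa4l2, Ndufaf6, Ndufv3 and Cox8a.

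Most members had fitted changes close to 0. The absolute log2 fold change (lactate against control) was under 0.5 for 84 of the 91, and it was over 1 for Ndufa4l2, at -1.77, and Cox7a1, at 1.12. The median was -0.12 for the members and 0.01 for all genes tested, and 61 members were below 0, against 49.0% of all genes. Both lactate libraries were below both control libraries for 13 of the 91 members, against 25.9% of all genes. They were above both for 3 of the 91, Sdha, Ndufaf4 and Ndufaf5, against 27.0% of all genes. Groups without overlap were thus rarer among the members than among all genes, in both directions. The median was -0.06 for complex I, 0.01 for complex II, -0.25 for complex III, -0.25 for complex IV and -0.11 for complex V. The median of the members changed sign with the libraries used. It was -0.42 without lactate replicate 2, -0.28 without control replicate 1, 0.04 without control replicate 2 and 0.09 without lactate replicate 1. Each of these fits also leaves the replicate numbers unequal between the groups. Members differed between replicates (below), so group and replicate number cannot be told apart in these values.

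**Figure D1:**
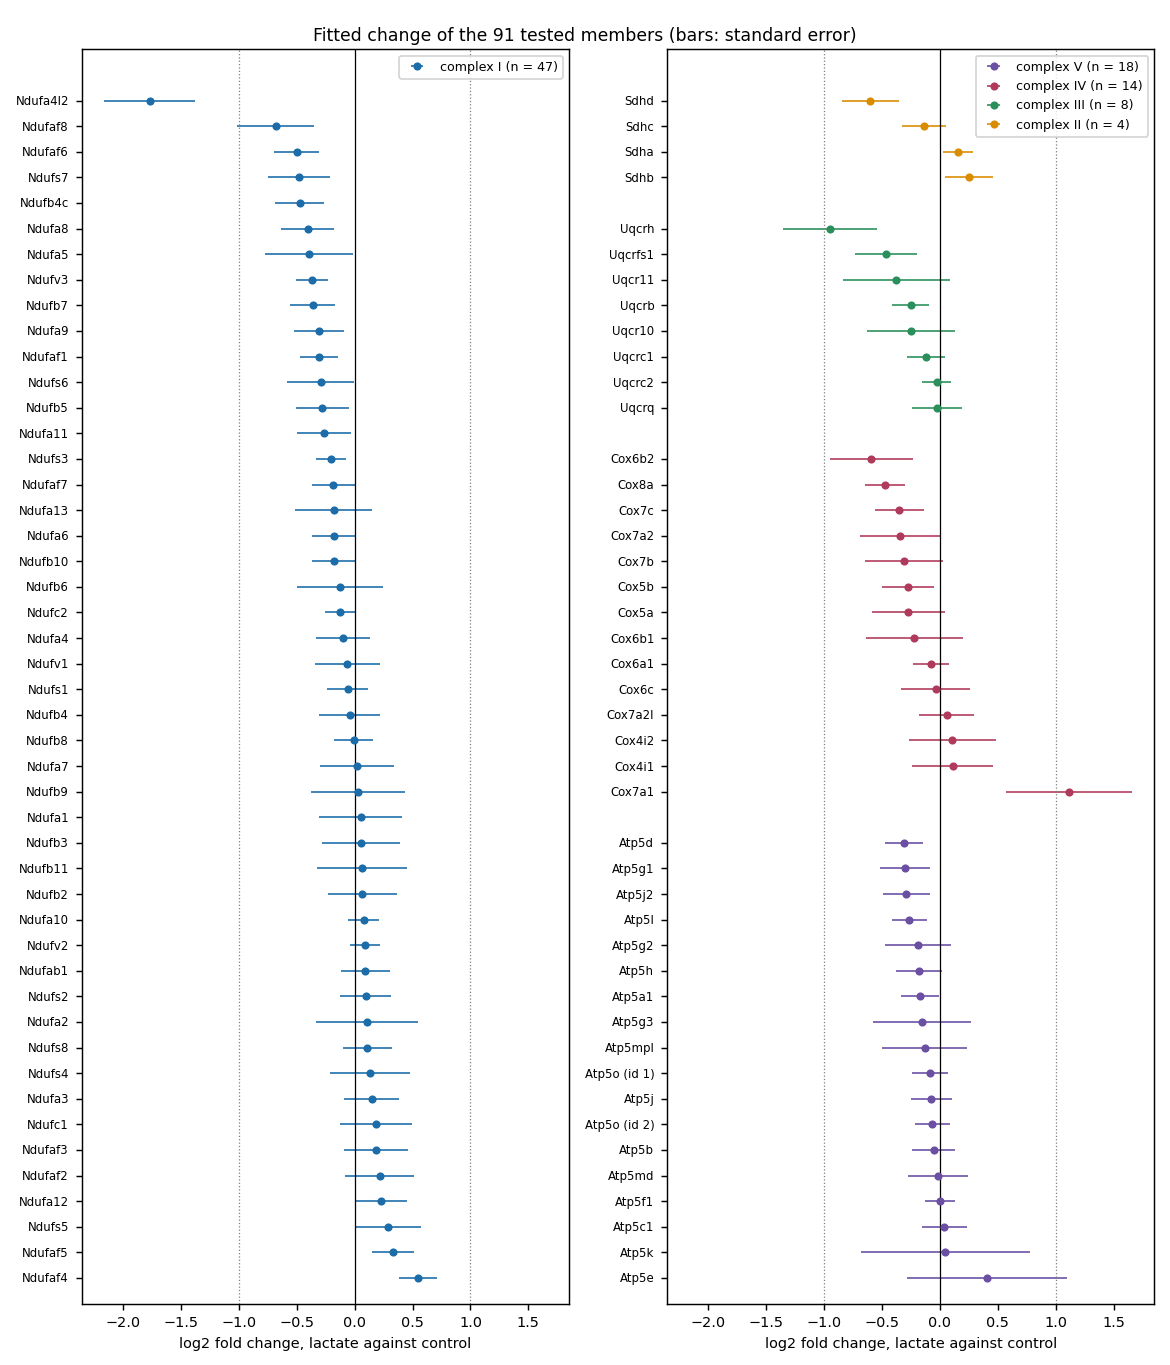
Fitted log2 fold change of lactate against control for each of the 91 tested members, by complex, with its standard error as a bar; dotted lines mark a 2-fold change, and the 2 identifiers of Atp5o are shown apart. Most points lie between -0.5 and 0.5, all 8 complex III genes lie below 0, and Ndufa4l2 (-1.77) and Cox7a1 (1.12) lie outside the dotted lines.

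For most members, single replicates differed more than the groups did in the fit. Replicate 2 was above replicate 1 in 78 of the 91 members in control and in 88 in lactate, and it was above in both groups for 78 members (85.7%), against 38.9% of all genes. The median difference on the log2 CPM scale (reads scaled to the library total, with TMM factors) was 0.33 in control and 0.54 in lactate, while for all genes it was 0.01 in both groups. For 74 members (81.3%) the absolute difference between replicates, averaged over the 2 groups, was larger than the fitted difference between groups. It was so for 46.3% of all genes. The first measure compares single libraries and the second groups of 2, so the first tends to be larger even without a change. Members of this set have short transcripts, with a median length of 721 bases against 2173 bases for all genes. Spearman correlations of length with the difference (replicate 2 minus replicate 1) were -0.17 in control and -0.48 in lactate for members. For all genes they were -0.14 and -0.23. The part of length in the replicate difference was not tested.

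The direction of this replicate difference was opposite for the mitochondrial genome taken as a whole. Its transcripts held 5.48% and 5.72% of gene reads in replicate 1 of control and lactate and 2.43% and 2.82% in replicate 2. None of its 13 subunit genes was higher in replicate 2 in both groups. Its complex V subunits were an exception in lactate by TPM. They summed to 11455 and 5843 TPM in control but to 11975 and 30438 TPM in replicates 1 and 2 of lactate. The nuclear members held 0.773% and 0.714% of gene reads in replicate 1 and 0.979% and 0.989% in replicate 2. The ordering was also seen when the mitochondrial transcripts were left out and TPM rescaled, with member sums of 24350 and 22331 TPM in replicate 1 and 28024 and 27442 in replicate 2 of control and lactate. The part of library preparation or RNA quality was not tested.

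**Figure D2:**
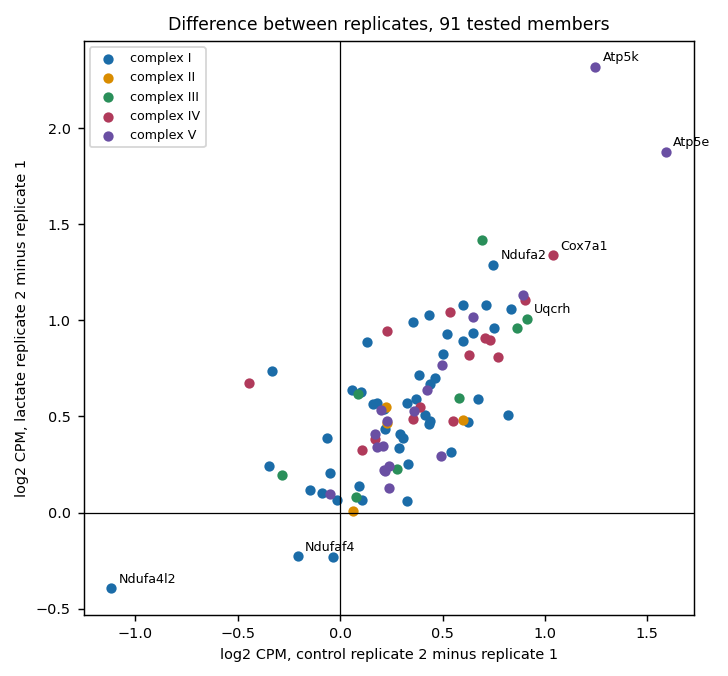
Difference between replicate 2 and replicate 1 on the log2 CPM scale in control (horizontal) and lactate (vertical) for the 91 tested members, coloured by complex. Most points (78 of 91) lie above 0 on both axes, Atp5k and Atp5e lie farthest out at the upper right, and Ndufa4l2 lies at the lower left.

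The widest replicate differences were in small ATP synthase subunits. Atp5k, which encodes subunit e of the membrane part, had 75 and 198 reads in control and 46 and 252 in lactate, so the lactate libraries lay on either side of both control libraries. Its fitted log2 fold change was 0.05 (SE 0.73). Atp5e, for the epsilon subunit of the central stalk, had 171 and 569 reads in control and 209 and 821 in lactate, with a fitted log2 fold change of 0.40 (SE 0.69). In both genes replicate 2 was the high library of its group. RSEM, the source of the TPM values, gave Atp5e 136 expected counts in all against 1770 reads in the count table. The level of Atp5e thus depended on how reads were assigned. The assembly factors were less one-sided, as 4 of the 8 tested Ndufaf genes were higher in replicate 2 in both groups, against 33 of 39 other complex I genes, a difference between subsets that was not tested.

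Summed over all members, the level was 21153 and 26285 TPM in the control libraries and 19063 and 24808 TPM in the lactate libraries. The groups overlapped, with means of 23719 ± 3629 TPM in control and 21935 ± 4063 TPM in lactate (SD, n = 2 each) and a two-sided exact permutation p of 0.667. With 2 libraries against 2 this test cannot go below 0.33. The summed level was 5983 ± 1032 TPM in control and 5755 ± 1322 TPM in lactate for complex I by name. That sum includes the processed pseudogene Ndufb4c and Ndufa4, later assigned to complex IV, with mean control levels of 492 and 384 TPM. For complex II the sums were 459 ± 58.4 TPM in control and 446 ± 18.5 TPM in lactate. Complex III had the widest relative gap, with 2215 and 2814 TPM in control and 1831 and 2422 TPM in lactate (-15.4%), and here too lactate replicate 2 lay above control replicate 1. The sums were 5261 ± 1073 and 4831 ± 1210 TPM for complex IV and 9502 ± 1041 and 8777 ± 1094 TPM for complex V.

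**Figure D3:**
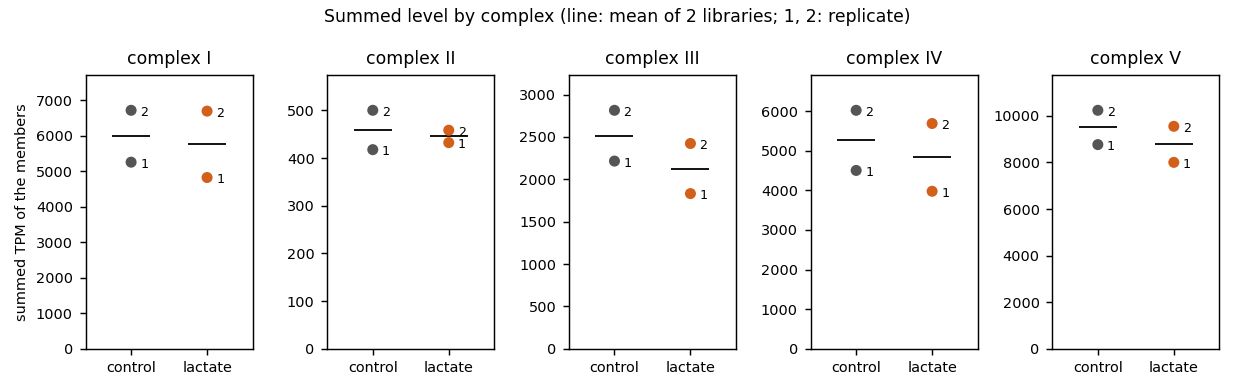
Summed TPM of the members of each complex, grouped by name, in each library. A line marks the mean of the 2 libraries of a group, and the replicate number stands beside each point. In all 5 complexes replicate 2 is the higher library of its group and the groups overlap.

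By name, the 3 highest levels in complex I in control belonged to a processed pseudogene and to 2 genes for accessory subunits. They were Ndufb4c, Ndufa7 and Ndufa4, with mean levels of 492, 497 and 384 TPM. Ndufa7, an accessory subunit, had 424 and 571 TPM in control and 356 and 683 TPM in lactate, and its fitted log2 fold change was 0.02 (SE 0.32). Ndufa4, which was named as a complex I subunit and was later assigned to complex IV, had 336 and 431 TPM in control and 313 and 417 TPM in lactate, with a fitted log2 fold change of -0.10 (SE 0.23). The groups overlapped for both genes.

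The level listed for Ndufb4c, a processed pseudogene, depended on how reads were assigned. All 390 bases of its transcript occur unchanged in Ndufb4, an accessory subunit, so a read inside them has no unique source. RSEM, which shares out such reads, gave 1751 expected counts in all to Ndufb4c and 1407 to Ndufb4, while the read counts were 313 and 2186. The fitted log2 fold changes from read counts were -0.48 (SE 0.21) for Ndufb4c and -0.04 (SE 0.26) for Ndufb4. The other 3 pseudogenes in the set never exceeded 7 reads and were not tested.

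Ndufa4l2, a paralogue of Ndufa4 known as a target of hypoxia-inducible factor, had the lowest fitted value of the set (ENSMUSG00000040280, chr10:127514967-127517154, GRCm38, plus strand). It had 368 and 185 reads in control and 96 and 77 in lactate, that is 59.0 and 19.4 TPM against 11.2 and 8.5 TPM. Both lactate libraries were below both control libraries, and control replicate 1 was well above the other 3. The mean was 15.5 ± 8.15 CPM in control and 4.53 ± 0.892 CPM in lactate (SD, n = 2 each), with a log2 fold change of -1.77 (SE 0.39) and an adjusted p of 0.0747 in edgeR's quasi-likelihood test.

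The call for Ndufa4l2 turned on the test and on the libraries. DESeq2 put the log2 fold change at -1.78 and the adjusted p at 0.000218, past the same call rule, which there called 375 genes in all (2.01%) and no other member. Over all alternatives the adjusted p ran from 4.37e-08, with the replicate number as a term in edgeR, to 0.317, with limma on log2(TPM + 1). Without control replicate 1 the values were -1.12 and an adjusted p of 0.140, and with any other library left out they met the call rule of edgeR. Such a fit holds 1 library against 2, so the spread comes from the group of 2 alone and the lone library is assumed to vary like it. Its exons share 32 bases with Shmt2 on the opposite strand, and the use of strand in counting is not given in the sources used here.

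Ndufaf4, an assembly factor of complex I (ENSMUSG00000028261, chr4:24898083-24905001, plus strand), had the only unadjusted p under 0.05 among members with a higher level. It had 423 and 402 reads in control and 668 and 605 in lactate, and both lactate libraries were above both controls. The means were 22.8 ± 2.31 and 33.3 ± 3.72 CPM, with a log2 fold change of 0.55 (SE 0.17) and an adjusted p of 0.130 in edgeR's test. Ndufaf5, also an assembly factor, had 205 and 283 reads in control and 306 and 339 in lactate, again without overlap, and a fitted log2 fold change of 0.33 (SE 0.18).

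Other assembly factors had values on the other side of 0. Ndufaf6 had 411 and 354 reads in control and 255 and 321 in lactate, with no overlap, a log2 fold change of -0.50 (SE 0.19) and an adjusted p of 0.196 in edgeR's test. Ndufaf8 had 98 and 191 reads in control and 75 and 114 in lactate, with overlap, and a log2 fold change of -0.68 (SE 0.33). Ndufaf1 was at -0.31 (SE 0.16), Ndufaf7 at -0.18 (SE 0.19), Ndufaf3 at 0.19 (SE 0.28) and Ndufaf2 at 0.22 (SE 0.30). The 8 factors were thus split evenly, 4 below and 4 above 0, with a median of 0.00.

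Among the other complex I subunits the values stayed within -0.48 and 0.29. Ndufs7, a core subunit that carries an iron-sulfur cluster, had 500 and 716 reads in control and 336 and 586 in lactate, with a log2 fold change of -0.48 (SE 0.27). Ndufv3, an accessory subunit of the NADH-binding module that was singled out after its values were seen, had 844 and 987 reads in control and 690 and 807 in lactate, without overlap, and a log2 fold change of -0.37 (SE 0.14) with an adjusted p of 0.178 in edgeR's test. Ndufs5, at the upper end, had 50 and 59 reads in control and 53 and 88 in lactate, with a log2 fold change of 0.29 (SE 0.28). Ndufa12, an accessory subunit, had 596 and 681 reads in control and 600 and 992 in lactate, with a value of 0.23 (SE 0.22). Ndufc1, an accessory subunit of the membrane arm, had 247 and 385 reads in control and 263 and 496 in lactate, with overlap and a value of 0.18 (SE 0.31).

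**Figure D4:**
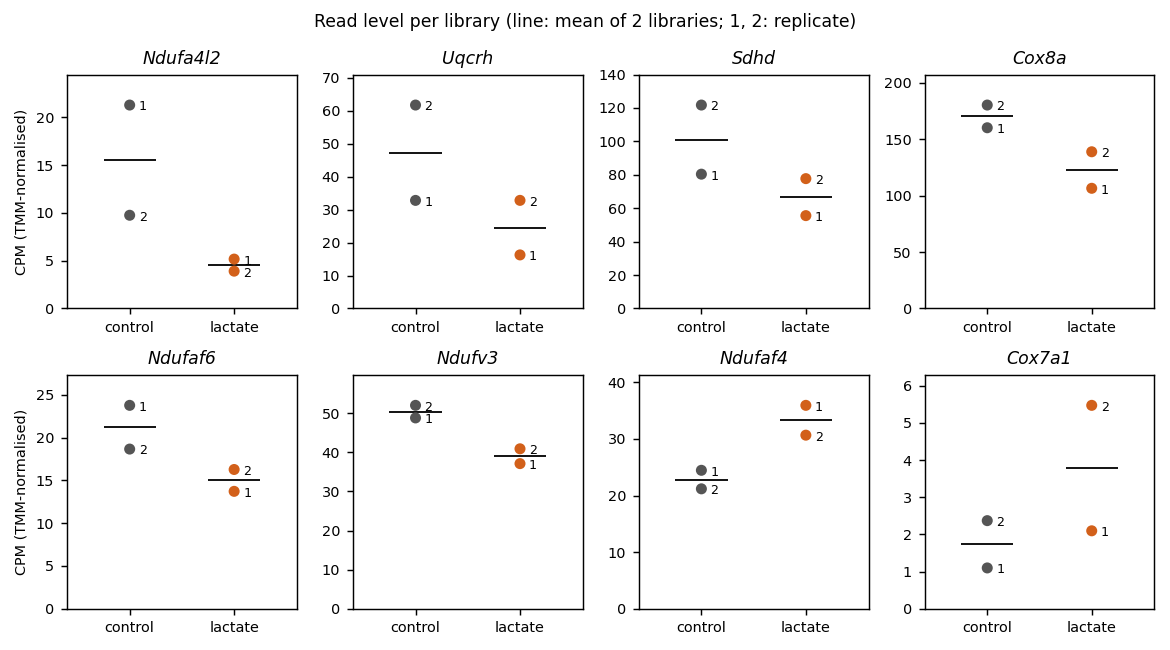
TMM-normalised CPM of 8 members in each library, with the mean of the 2 libraries of a group as a line and the replicate number beside each point. Groups do not overlap for Ndufa4l2, Sdhd, Cox8a, Ndufaf6, Ndufv3 and Ndufaf4, while for Uqcrh control replicate 1 and lactate replicate 2 meet and for Cox7a1 lactate replicate 1 lies within the control range.

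Complex II, which has no subunit encoded in mitochondrial DNA, held values in both directions. Sdhd, for the small membrane anchor (chr9:50596357-50603812, minus strand), had 1390 and 2310 reads in control and 1033 and 1533 in lactate. After normalisation both lactate libraries were below both controls, with 101 ± 29.3 CPM in control and 66.6 ± 15.7 CPM in lactate, a log2 fold change of -0.60 (SE 0.25) and an adjusted p of 0.219 in edgeR's test. Sdhc, the other membrane anchor, was at -0.14 (SE 0.19) with overlapping groups.

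The catalytic subunits of complex II were on the other side of 0. Sdha, the flavoprotein that oxidises succinate, had 4318 and 4948 reads in control and 5262 and 5623 in lactate, with no overlap and a log2 fold change of 0.15 (SE 0.13). Sdhb, the iron-sulfur subunit, had 951 and 1219 reads in control and 1069 and 1664 in lactate, with overlap and a log2 fold change of 0.25 (SE 0.21). None of the 4 had an adjusted p under 0.219 in edgeR's test. On the TPM scale, the means in control were 155 ± 45.8 for Sdhd, 141 ± 2.79 for Sdha, 89.6 ± 11.5 for Sdhb and 73.4 ± 1.80 for Sdhc.

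All 8 complex III genes had a fitted value below 0, from -0.95 to -0.03. Uqcrh, for the hinge protein (chr4:116066965-116075071, minus strand), had 567 and 1171 reads in control and 302 and 647 in lactate. Lactate replicate 2 was level with control replicate 1, so the groups overlapped, with 47.3 ± 20.5 CPM in control and 24.5 ± 11.7 CPM in lactate. The log2 fold change was -0.95 (SE 0.41), with an adjusted p of 0.232 in edgeR's test.

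The rest of complex III lay closer to 0. Uqcrfs1, the Rieske iron-sulfur protein, had 1158 and 1903 reads in control and 895 and 1439 in lactate, with overlap and a log2 fold change of -0.47 (SE 0.27). The highest levels in control were those of Uqcr10, Uqcrb and Uqcrc1. Uqcr10 had 440 and 815 TPM in control and 374 and 645 TPM in lactate, Uqcrb had 631 and 487 against 484 and 472 TPM, and Uqcrc1, a core protein, had 280 and 342 against 282 and 313 TPM. Their fitted log2 fold changes were -0.25 (SE 0.38), -0.25 (SE 0.16) and -0.12 (SE 0.16). Uqcrb was the member of this complex whose groups did not overlap.

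In complex IV, Cox8a was the member with an unadjusted p under 0.05. This gene for a small membrane subunit (chr19:7215153-7217616, minus strand) had 2770 and 3421 reads in control and 1980 and 2740 in lactate, with both lactate libraries lower. The means were 170 ± 14.2 and 122.7 ± 22.9 CPM, with a log2 fold change of -0.47 (SE 0.17) and an adjusted p of 0.175 in edgeR's test. It was also the member of complex IV with the highest level, at 954 and 1071 TPM in control and 702 and 812 TPM in lactate.

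The other high members of complex IV overlapped between groups. Cox4i1, the largest nuclear subunit of the core enzyme, had 585 and 907 TPM in control and 677 and 1020 TPM in lactate, and a log2 fold change from reads of 0.11 (SE 0.35). Cox6a1 had 713 and 765 TPM in control and 679 and 750 TPM in lactate, with -0.08 (SE 0.16).

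Several complex IV subunits exist in tissue-restricted forms, and most of these were near or at 0. Cox8b, a muscle form, had 0 reads in all 4 libraries, and Cox8c and Cox6a2, forms of testis and of muscle, reached no more than 3 and 4 reads. Cox7b2 had between 9 and 15 reads. These 4 did not pass the filter. Cox7b, the main form of the subunit shared with Cox7b2, had 1406 and 2634 reads in control and 1197 and 2226 in lactate, with overlap and a log2 fold change of -0.31 (SE 0.34). Cox4i2, a form known from lung, had 23 and 18 reads in control and 17 and 30 in lactate, and held between 0.243% and 0.629% of the summed TPM of Cox4i1 and Cox4i2.

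Cox7a1, the form of subunit 7a of heart and skeletal muscle (chr7:30184144-30186078, plus strand), had the highest fitted value of the set. It had 19 and 45 reads in control and 39 and 108 in lactate, so that lactate replicate 1 lay within the control range. The means were 1.74 ± 0.900 and 3.79 ± 2.39 CPM, with a log2 fold change of 1.12 (SE 0.55) and an adjusted p of 0.281 in edgeR's test. Its share of the summed TPM of Cox7a1, Cox7a2 and Cox7a2l was 12.3% and 14.1% in control and 19.3% and 30.6% in lactate, which did not overlap, and the permutation p was 0.33, the lowest an exact test of 2 against 2 can give.

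The rest of the family's RNA came from its relatives. Cox7a2, the widely used form, held 32.5% and 38.2% in control and 25.9% and 29.5% in lactate. Its levels were uncertain, since RSEM gave it 926 expected counts in all where the count table had 3469 reads. Cox7a2l, a factor in the joining of complexes III and IV, held 55.2% and 47.7% in control and 54.7% and 39.9% in lactate. RSEM gave it 3167 expected counts in all against 5568 reads, and gave Cox7a1 159 against 211. The shares of this family thus depended on how reads were assigned. In control, Cox7a2 had 678 and 1216 reads and Cox7a2l 1019 and 1639, against 19 and 45 for Cox7a1. By reads the part of Cox7a1 was therefore far smaller than its TPM share.

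Cox6b2, a testis form of subunit 6b, was read well above 0. It had 318 and 507 reads in control and 181 and 398 in lactate, with overlap and a log2 fold change of -0.59 (SE 0.36). Its share of the summed TPM of Cox6b1 and Cox6b2 was 27.8% and 21.3% in control and 20.8% and 19.2% in lactate. RSEM gave it 708 expected counts in all, against 1404 reads in the count table.

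The share of Ndufa4l2 in its family followed its reads. It held 15.0% and 4.31% of the summed TPM of Ndufa4 and Ndufa4l2 in control and 3.46% and 2.0% in lactate. The groups did not overlap, and the gap between the control libraries was wider than the gap between control replicate 2 and either lactate library. The exact permutation p was 0.33.

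**Figure D5:**
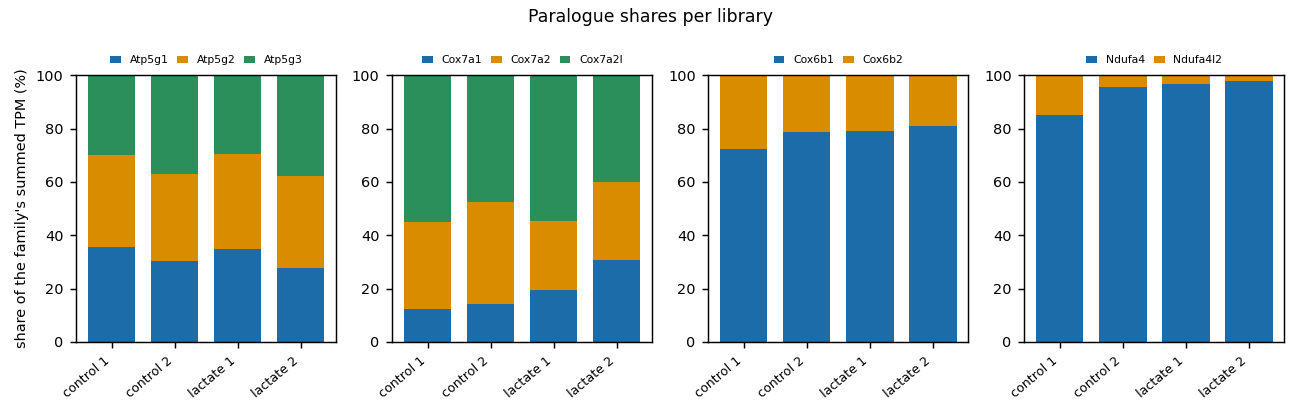
Share of the summed TPM of 4 paralogue families held by each gene, in each library, with reads assigned by RSEM. The c subunit genes hold between 27.9% and 37.7% each in every library, the share of Cox7a1 is highest in lactate replicate 2 (30.6%), and that of Ndufa4l2 is highest in control replicate 1 (15.0%).

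Complex V held the highest summed level of the 5 complexes and the member with the highest level, Atp5b, while Cox8a of complex IV was second. Atp5b, the catalytic beta subunit, had 3408 and 3007 TPM in control and 3132 and 2826 TPM in lactate, and its fitted log2 fold change from reads was -0.06 (SE 0.19). Atp5a1, the alpha subunit, had 699 and 862 TPM in control and 672 and 797 TPM in lactate, with -0.17 (SE 0.17). Atp5md, a small membrane subunit, had 528 and 696 TPM in control and 439 and 581 TPM in lactate, with -0.02 (SE 0.26). The groups overlapped by read level for all of these.

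All 18 members of complex V had an absolute log2 fold change under 0.5, from -0.31 to 0.40, and 15 were below 0. The lowest value was that of Atp5d, the delta subunit of the central stalk, named after its values were seen, with 2125 and 2645 reads in control and 1738 and 2336 in lactate and a log2 fold change of -0.31 (SE 0.16). Its exons share 68 bases with Cbarp on the opposite strand. A pair of identifiers carries the name Atp5o, the subunit that joins the catalytic head to the stalk, and the pair overlaps on the genome. The read counts divided almost evenly, with totals of 5275 and 5456, while RSEM gave 2.03 times the reads of the first to that identifier and 0 TPM to the other. Their fitted values were -0.09 (SE 0.15) and -0.06 (SE 0.15).

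The 3 genes of the c subunit, whose coding ends are printed above, shared its RNA almost evenly. Atp5g1 held 35.7% and 30.2% of their summed TPM in control and 34.8% and 27.9% in lactate. Atp5g2 held 34.4% and 32.8% in control and 35.7% and 34.4% in lactate. Atp5g3 held 29.9% and 37.0% in control and 29.5% and 37.7% in lactate. The share of Atp5g1 was lower and that of Atp5g3 higher in replicate 2 of each group, and the groups overlapped for both. For Atp5g2 both lactate shares were above both control shares, with an exact permutation p of 0.33. The fitted log2 fold changes were -0.30 (SE 0.22), -0.19 (SE 0.29) and -0.16 (SE 0.42).

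Promoter sequence was available for 75 of the 97 member symbols in the RefSeq table for GRCm38.p6, as 80 windows of 300 bases (250 before and 50 after the start). Both strands were searched for the letters of sites known from respiratory chain genes, and for those of the TATA box and an ATF4 element. All 32851 windows of the table were the comparison. The NRF1 letters GCATGCGC were in 15.0% of member windows and 2.71% of all, and those for GABP, an ETS factor also called NRF-2, CCGGAAG, in 23.8% and 8.86%. YY1 letters (AAGATGGCG) were in 10% and 1.40%, ERR letters (TCAAGGTCA) in 2.5% and 0.423%, and CREB letters (TGACGTCA) in 5% and 1.79%. The GC box of SP1 (GGGCGG) was in 43.8% and 35.7%, and the TATA box (TATAAA) in 11.3% and 13.6%. The ATF4 element TGATGNAA was in 0 of the 80 windows and in 3.97% of all.

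Among windows of genes that passed the count filter the shares were 4.77% for NRF1, 15.7% for GABP, 2.57% for YY1, 0.248% for ERR, 2.82% for CREB, 58.9% for SP1, 7.49% for the TATA box and 2.29% for the ATF4 element. Against these windows the members' share was lower for SP1, the reverse of the order against all windows. The member shares include windows of Cox7b2 and Cox8b, which did not pass the filter. Each of these held a TATA box match, as did both overlapping windows of Ndufa7. The 11.3% and 7.49% for the TATA box thus come from unlike sets, and no order is drawn from them. Windows of 1 gene with several starts can overlap, the NRF1 letters can overlap their own reverse complement, and neighbouring GC boxes can overlap each other. A match is a description of the letters and no evidence of binding.

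The 190 bases before the start are given for Uqcrh, which had the lowest fitted value of the members with a promoter entry, and for Ndufaf4, the member with a higher level and an unadjusted p under 0.05. The Uqcrh window is chr4:116075071-116075260 (minus strand) and that of Ndufaf4 is chr4:24897893-24898082 (plus strand), both GRCm38.p6 and written 5′ to 3′ on the strand of the gene, with matches to the letters above in capitals.
Uqcrh: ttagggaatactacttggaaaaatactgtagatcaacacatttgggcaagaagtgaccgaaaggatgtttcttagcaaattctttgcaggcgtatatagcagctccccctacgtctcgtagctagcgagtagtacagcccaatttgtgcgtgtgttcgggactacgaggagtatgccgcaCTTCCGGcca
Ndufaf4: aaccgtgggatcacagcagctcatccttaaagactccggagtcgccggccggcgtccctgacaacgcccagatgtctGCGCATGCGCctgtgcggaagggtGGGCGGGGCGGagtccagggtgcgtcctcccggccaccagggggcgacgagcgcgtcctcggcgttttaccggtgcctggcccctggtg
Uqcrh held 1 GABP match close to its start, and Ndufaf4 held 2 overlapping NRF1 matches and 2 overlapping GC boxes.

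Genes that work with the members were counted from lists fixed by function. In each list 0 genes had an adjusted p under 0.05 in edgeR's test. The counts given are thus at an unadjusted p under 0.05, beside the shares of all genes above. DESeq2 gave an adjusted p under 0.05 to 1 regulator (Gabpb2), 2 mitochondrial ribosomal proteins (Mrpl14 and Mrps12, the latter named after its values were seen) and 0 genes of the other lists of partners. The share of all genes with such a p in DESeq2 was 4.50%. Of the mobile carrier and its donor, cytochrome c (Cycs) was at 0.02 (SE 0.13), its testis form Cyct at 0.35 (SE 0.19) and Cyc1, the haem subunit of complex III, at -0.10 (SE 0.29). Of 47 other assembly factors, 5 were higher and 4 lower at an unadjusted p under 0.05, with a median of 0.06. The extremes were Sdhaf3, an assembly factor of complex II, with 61 and 53 reads in control and 118 and 115 in lactate (0.95, SE 0.22), and Sco2, a copper chaperone of complex IV, with 176 and 220 against 124 and 122 reads (-0.76, SE 0.19). The groups did not overlap for either gene, and the replicates lay close together.

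Of 13 genes of coenzyme Q synthesis, 2 were higher and 0 lower at an unadjusted p under 0.05, with a median of 0.11. Of 5 tested genes on a list of phosphate and adenine nucleotide carriers and uncoupling proteins (4 carriers and the uncoupling protein Ucp2), 1 was higher and 1 lower, namely Slc25a31, the testis form of the adenine nucleotide carrier (0.78, SE 0.26), and Slc25a5, its widespread form (-0.56, SE 0.20). Slc25a5 had 7279 and 10705 reads in control and 5426 and 7380 in lactate. Of 78 mitochondrial ribosomal protein genes, 0 were higher and 11 lower, with a median of -0.14, and the lowest was Mrpl14 (195 and 248 against 87 and 119 reads, -1.18, SE 0.21, adjusted p 0.0571 in edgeR's test). Of the 13 subunit genes in mitochondrial DNA, 0 were higher and 0 lower, with a median of -0.13.

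Of 17 tested regulators of mitochondrial biogenesis and mitochondrial DNA expression, 2 were higher and 2 lower at an unadjusted p under 0.05, with a median of -0.14. Gabpb2, a partner subunit of GABP, had the highest value, with 1791 and 1955 reads in control and 3147 and 3399 in lactate (0.73, SE 0.12, adjusted p 0.0540 in edgeR's test). Gabpa, the DNA-binding subunit, was at -0.20 (SE 0.26) and Nrf1 at 0.01 (SE 0.14). Mterf3, a regulator of mitochondrial transcription, was at 0.64 (SE 0.14), and Twnk, the mitochondrial DNA helicase, at -0.57 (SE 0.12). Of the coactivators, Pprc1 had 5007 and 4819 reads in control and 3644 and 3431 in lactate (-0.55, SE 0.15), Ppargc1b was at -0.49 (SE 0.26), and Ppargc1a never exceeded 2 reads. Esrra was at -0.37 (SE 0.31) and Tfam, which packages mitochondrial DNA, at 0.14 (SE 0.15).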

How the data were processed

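Total RNA of 2 control and 2 lactate libraries (TruSeq kit) was sequenced. The authors trimmed reads with cutadapt 1.16, mapped them with STAR to mm10 with GENCODE annotation, and deposited raw counts per gene and, from RSEM on each library, expected counts, TPM and FPKM. Counts came from reads in exons, and the use of strand is not given in the sources used here. The 1153 rows of transposable elements were left out of library sizes and tests.

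The counts were tested with edgeR 4.0.16 in R 4.3.3 (filterByExpr by group, TMM factors, glmQLFit with its older legacy setting, no replicate term). P-values were adjusted over the 18661 genes, and calls needed an adjusted p under 0.05 and a difference above 2-fold. Alternatives used DESeq2 1.42.0, limma 3.58.1 on log2(TPM + 1) or log2(TPM + 0.1) for genes with a mean TPM above 0.1, other scalings and filters, the replicate number as a block, RSEM expected counts rounded to whole numbers, FPKM, and each library left out. Adjusted p-values that DESeq2 left empty were kept out of counts. TPM sums and shares were compared by exact permutation tests. The test was tried on simulated data with known changes. Positions, biotypes and coding sequence come from GENCODE M21 on GRCm38, where 55154 of 55335 identifiers matched, and promoters from RefSeq.

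Genes named are all complex II members, the 3 highest members of each complex by TPM in control, the paralogue families, the Ndufaf factors, the 10 largest values in each direction, and of the other lists the largest changes and the regulators Nrf1, Gabpa, Ppargc1a, Ppargc1b, Pprc1, Esrra and Tfam. Others are said to be named after their values were seen or for shared exons or sequence, or for the widest replicate difference. Members and lists were chosen with earlier results of these data known. Depth was between 18067562 and 19077885 gene reads per library, and with 2 libraries a group the spread between replicates, at 15.9% for the common biological coefficient of variation, limits the precision.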

Additional observations from a re-analysis of the deposited data

How the results depend on the processing

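Genes called numbered 168 in edgeR and 375 in DESeq2, 807 with no filter on low counts, 1156 with the replicate block, 44 from RSEM expected counts, 0 and 2 with limma on log2(TPM + 1) and log2(TPM + 0.1), and 84 to 869 with 1 library left out. A fit without a library holds 1 against 2 and assumes that the lone library varies like the other group. Members called (0) became 1 in DESeq2, 1 with no filter, 2 with the block and 0 to 6 with a library left out, and members with an adjusted p under 0.05 (0) became 1, 2, 45 and 0 to 16. Members higher at an unadjusted p under 0.05 (1) became 2 in DESeq2, 3 with no filter, 7 with the block, 2 and 2 with limma and 1 to 7 with a library left out. Members lower (4) became 1 with library totals alone, 14 with no filter, 40 with the block, 2 and 2 with limma and 2 to 36 with a library left out. The largest counts came without lactate replicate 2 (6 called, namely Ndufa4l2, Uqcrh, Uqcr11, Atp5k, Cox6b2 and Ndufa5) and without lactate replicate 1 (3 called, Ndufa4l2, Cox7a1 and Atp5e). The cause was not tested.

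Same-numbered libraries deviated together (correlation 0.561 over all genes and 0.764 over members), but the labels give the numbers no meaning, and with 2 pairs the pairing is not established. With the block, 49.5% of members (39 lower and 6 higher) and 44.5% of all genes had an adjusted p under 0.05 in edgeR. All genes were not split by direction at that threshold, so the 39 and 6 have no background. Cox7a1 and Ndufa4l2 were called.

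Among named members whose value exceeded its standard error, the sign turned for Ndufs5 with limma (-0.15 and -0.16), and with a library left out values ran from -0.0779 to 0.54 for Ndufs5, from -0.13 to 0.49 for Ndufa12 and from -0.0558 to 0.47 for Sdhb. Of 688 values for 43 named members, 634 kept their sign. The summed TPM difference ran from -19.6% to 4.59%. With library totals alone the members' median was -0.05 and that of all genes 0.08, 50 of 91 members were below 0, and 73.0% of called genes were higher, against 61.3%.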
